A study of Homo sapiens with 2 samples.

Results

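The 39 genes described here make, modify, burn and store fatty acids, or belong to the peroxisome proliferator-activated receptor (PPAR) system that adjusts these pathways. They were listed by name and role out of 41582 gene symbols, with earlier results of these data known. The shares given below beside all genes are therefore descriptions of a list that was not chosen blind. Levels are in TPM, a unit of transcript abundance corrected for transcript length and library total, and 38 members averaged 1 TPM or more over the 2 libraries. The remaining gene, AGPAT2, was listed at 0 TPM with DMSO and at 0.05 TPM with CCA-1.1. The libraries came from U87, an established human glioblastoma cell line labelled WT and cultured in RPMI with fetal bovine serum. Cells received either the curcumin analog CCA-1.1 or the solvent DMSO for 72 h. Each condition had 1 library, and the concentration of CCA-1.1 used for sequencing is not given in the sources used here. No difference below therefore has a replicate check, and none was tested.

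Fatty acids are built in the cytosol from citrate, which ATP citrate lyase splits into acetyl-CoA. Acetyl-CoA carboxylase and fatty acid synthase then assemble palmitate, and elongases and desaturases lengthen it and add double bonds. For use as fuel, fatty acids are joined to coenzyme A, carried into mitochondria as carnitine esters and shortened by beta-oxidation; the alternative fate is esterification to triglyceride in lipid droplets. PPARs are nuclear receptors that bind fatty acids and, paired with a retinoid X receptor (RXR), raise transcription of genes for lipid uptake and oxidation. Synthesis genes are controlled mainly by sterol regulatory element-binding proteins (SREBPs). Glioblastoma cells are known for active lipid synthesis and for lipid droplets.

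The 4 members that differed most between the libraries belonged to the group of PPAR-responsive, uptake and binding genes. ANGPTL4 was 1 TPM with DMSO and 7.07 TPM with CCA-1.1, PDK4 was 13.7 and 25.0 TPM, CD36 was 1.83 and 3.62 TPM, and FABP5 was 4.09 and 6.06 TPM. The receptors themselves and most enzymes differed little, with FADS3, ACSL3 and ACADM the other members past 1.2-fold, all higher with CCA-1.1. The difference used throughout is the log2 of the ratio of CCA-1.1 to DMSO after adding 1 TPM to each. This gives low genes a smaller difference than the ratio of their TPM alone would. On this scale 7 of the 38 members (18.4%) were higher by more than 1.2-fold, a log2 difference of 0.26, and 0 were lower by as much. The background for that count is 15.5% of all 15485 genes averaging 1 TPM or more, and 10.7% of the 12041 protein-coding genes among them. In the lower direction the background is 9.3% of all genes and 7.04% of protein-coding genes. Past 2-fold stood 1 member, ANGPTL4, beside 1.89% of all genes and 0.149% of protein-coding genes that were higher by 2-fold. In the lower direction 0 members were past 2-fold, beside 1.67% of all genes and 0.191% of protein-coding genes. The members' median difference was 0.08, against 0.03 over all genes and 0.02 over protein-coding genes. Above 0 were 31 members and below 0 were 7, a share of 81.6% above 0 beside 56.1% of all genes and 53.8% of protein-coding genes.

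Low genes crossed 1.2-fold more often than high genes, so the members were also counted in bands of mean level chosen after the values were seen. Of the 10 members between 1 and 10 TPM, 3 were higher past 1.2-fold (30.0%), beside 16.9% of protein-coding genes in that band. Of the 28 members at 10 TPM or more, 4 were higher past it (14.3%), beside 7.44% of protein-coding genes. Without the 5 PPAR-responsive, uptake and binding genes, 3 of 33 members were higher past 1.2-fold, which is 9.09%, and their median difference was 0.08. That share lies near the background, but the group held the 4 largest differences, so a fall without it was fixed in advance. Genes for oxidation, which PPARs also raise, were counted under other roles. The small positive median was as large without the group.

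**Figure D1:**
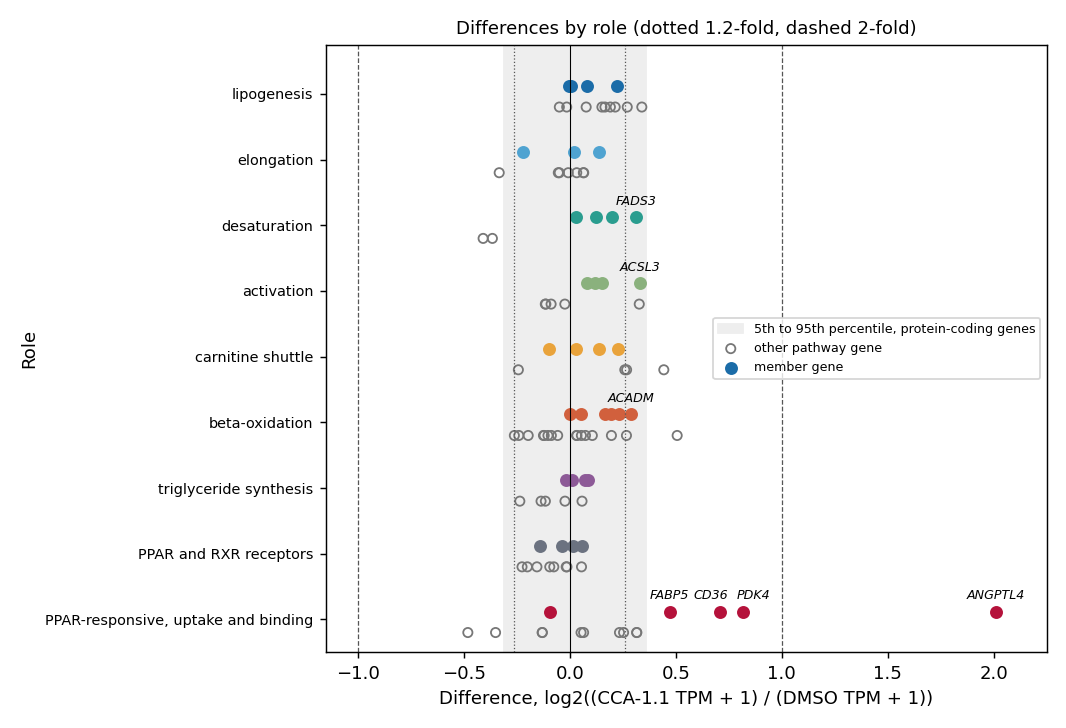
Log2 difference between the CCA-1.1 and DMSO libraries for members (filled points) and other genes of the same pathways (open points) in each of 9 roles, with dotted lines at 1.2-fold and dashed lines at 2-fold. ANGPTL4 at 2.01, PDK4 at 0.82, CD36 at 0.71 and FABP5 at 0.47 lie to the right of the grey band, which holds protein-coding genes from the 5th to the 95th percentile.

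The label of the cells was checked against marker genes. Of 11 markers of this glioblastoma line, 9 reached 1 TPM in at least 1 library, and the list summed to 42309 TPM with DMSO and 36740 TPM with CCA-1.1; the part of that gap in the results was not tested. Among them were VIM at 3217 and 3106 TPM, FN1 at 11241 and 9088 TPM and CD44 at 607 and 473 TPM in the DMSO and CCA-1.1 libraries. TNC was 163 and 96.7 TPM. Low in both were NES at 7.53 and 7.62 TPM, OLIG2 at 5.64 and 7.03 TPM and SOX2 at 1.87 and 1.45 TPM. S100B was listed at 0 in both, GFAP was 0.41 and 0.57 TPM, and, from outside that list, CDKN2A, which this line has lost, was listed at 0 in both. All 5 adipocyte markers were under 1 TPM in both libraries, summing to 1.12 and 1.07 TPM. Of 5 hepatocyte markers 4 were under 1 TPM, the exception being SERPINA1 at 18.2 and 14.9 TPM. Of 3 immune cell markers 2 were under 1 TPM, the exception being CD14 at 1.82 and 1.54 TPM. Of 3 endothelial and epithelial markers 2 were under 1 TPM, the exception being PECAM1 at 3.41 and 2.71 TPM. In bulk RNA, fewer cells of a kind and less RNA per cell cannot be told apart. The read depth of the libraries is unknown from TPM, so no counting interval is given.

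The upstream sequences of 5 members were taken from RefSeq promoter windows of GRCh38.p14, of which 34 of the 39 members had at least 1; FASN, DGAT1, DGAT2, ETFDH and FABP5 had none. Each is 250 bases ending at the base before the annotated start, written in the direction of transcription. ANGPTL4 (chr19:8363905-8364154, plus strand) and PDK4 (chr7:95596517-95596766, minus strand) are shown as the members with the largest differences, and SCD (chr10:100346983-100347232, plus strand) as the most abundant. Capitals mark TATAAA or CCAAT on either strand, letters that were searched after the values were seen.
ANGPTL4: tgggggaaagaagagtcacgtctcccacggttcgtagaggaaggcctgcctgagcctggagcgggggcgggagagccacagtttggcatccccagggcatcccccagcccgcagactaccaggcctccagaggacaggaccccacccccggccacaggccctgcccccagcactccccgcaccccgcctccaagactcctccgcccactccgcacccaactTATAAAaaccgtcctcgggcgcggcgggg
PDK4: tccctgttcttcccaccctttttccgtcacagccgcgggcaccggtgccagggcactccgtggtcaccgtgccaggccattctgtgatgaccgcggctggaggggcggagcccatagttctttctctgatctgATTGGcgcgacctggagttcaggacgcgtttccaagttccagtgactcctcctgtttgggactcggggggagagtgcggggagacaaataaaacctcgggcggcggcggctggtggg
SCD: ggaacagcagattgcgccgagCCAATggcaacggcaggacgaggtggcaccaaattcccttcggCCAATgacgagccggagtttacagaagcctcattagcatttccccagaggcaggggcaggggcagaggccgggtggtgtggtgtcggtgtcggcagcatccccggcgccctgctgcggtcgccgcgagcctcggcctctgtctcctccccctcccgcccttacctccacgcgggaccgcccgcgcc

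TATAAA stood 29 bases before the ANGPTL4 start, in a window of 68.8% GC, and 11.5% of the 35116 promoter windows (250 bases before to 50 after a start) hold these letters on either strand. Among members, 7 of 61 windows held them, from 5 genes including ANGPTL4, a share near that background. In PDK4, CCAAT was found on the reverse strand as ATTGG, 117 bases before the start, and SCD held CCAAT at 229 and 186 bases before its start. CCAAT occurs in 34.6% of all windows and was in 19 of the 61 windows of members, a share near that background. The PPAR/RXR direct repeat, a pair of AGGTCA copies with any base between them, was in 0.0228% of windows on either strand, and a looser form built of AGGNCA was in 0.31%, with 0 members holding either. These letters were searched in short windows alone, so nothing follows about binding by the receptors. The sterol element TCACNCCAC was in 1.13% of windows and in 1 member, ACSL1, upstream of an alternative start. That sequence (chr4:184805554-184805803, minus strand) is shown because it holds the match, in capitals on the reverse strand, 242 bases before this start.
ACSL1: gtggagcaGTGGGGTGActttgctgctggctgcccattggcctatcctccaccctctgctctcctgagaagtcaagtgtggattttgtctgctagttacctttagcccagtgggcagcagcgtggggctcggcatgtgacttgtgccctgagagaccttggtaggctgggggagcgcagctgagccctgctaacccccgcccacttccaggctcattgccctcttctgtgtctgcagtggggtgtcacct

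HADHA and HADHB, the subunit genes of the mitochondrial trifunctional protein, start from opposite strands of the same stretch of chromosome 2. The HADHB upstream sequence (chr2:26244689-26244938, plus strand) is shown for this arrangement, with capitals for the 194 bases that also lie within 250 bases upstream of HADHA.
HADHB: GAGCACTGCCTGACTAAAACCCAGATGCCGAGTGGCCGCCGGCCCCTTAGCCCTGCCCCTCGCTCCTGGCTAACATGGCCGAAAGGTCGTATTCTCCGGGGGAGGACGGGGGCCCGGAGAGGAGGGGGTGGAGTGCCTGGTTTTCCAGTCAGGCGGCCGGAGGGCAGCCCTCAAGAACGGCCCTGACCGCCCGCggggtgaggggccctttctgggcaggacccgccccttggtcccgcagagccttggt

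Among PPAR-responsive, uptake and binding genes, ANGPTL4 (chr19:8364155-8374370) encodes a secreted inhibitor of lipoprotein lipase. It was 1 TPM with DMSO and 7.07 TPM with CCA-1.1, a ratio of 7.07 and a log2 difference of 2.01. Its difference was above that of 99.98% of protein-coding genes, with 1 gene higher, and above 99.95% of those between 1 and 10 TPM. Over all genes averaging 1 TPM or more it was above 99.06%, and above 97.98% of those between 1 and 10 TPM. The DMSO value of 1 TPM equals the filter on mean level, so the ratio rests on a low value. The transcript NM_139314.3 carried 80.4% of the difference in TPM, from 0.47 to 5.35 TPM, and its share of the gene went from 47.0% to 75.7%. Transcript NM_001039667.3 was 0.53 and 1.34 TPM, and its share went from 53.0% to 18.95%. Kallisto divides reads shared by transcripts by estimation, so these shares are less certain than the gene's sum. With CCA-1.1 it was still below the level of most members.

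PDK4 (chr7:95583499-95596516, minus strand) encodes a kinase that switches off pyruvate dehydrogenase and so favours fatty acid over glucose oxidation. PDK4 was 13.7 TPM with DMSO and 25.0 TPM with CCA-1.1, a ratio of 1.82 and a log2 difference of 0.82. That difference lay above 99.72% of all protein-coding genes and above 99.86% of those at 10 TPM or more. Over all genes averaging 1 TPM or more it lay above 97.62%. A single transcript is listed for it, so no division among isoforms enters its value. CD36, a fatty acid translocase and scavenger receptor at the cell surface, was 1.83 TPM with DMSO and 3.62 TPM with CCA-1.1, a log2 difference of 0.71. Of 28 CD36 transcripts listed, 21 were at 0 in both libraries, and the most abundant, NM_001371077.1, was 0.83 and 1.45 TPM.

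FABP5, a cytosolic fatty acid carrier able to deliver ligand to PPARs, was 4.09 TPM with DMSO and 6.06 TPM with CCA-1.1, a log2 difference of 0.47. Its processed copy FABP5P3 was 0.07 and 0.08 TPM; reads of near-identical copies can be divided between them, so FABP5 carries that uncertainty. FABP3, the heart-type carrier, went the other way at 2.96 and 2.71 TPM, a log2 difference of -0.09. Its gene body overlaps that of ZCCHC17 (16.4 and 14.5 TPM) by 5349 bases, and the part of this overlap in its value was not tested. The 5 members of this group summed to 23.6 TPM with DMSO and 44.4 TPM with CCA-1.1, of which PDK4 made up the most in either library.

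**Figure D2:**
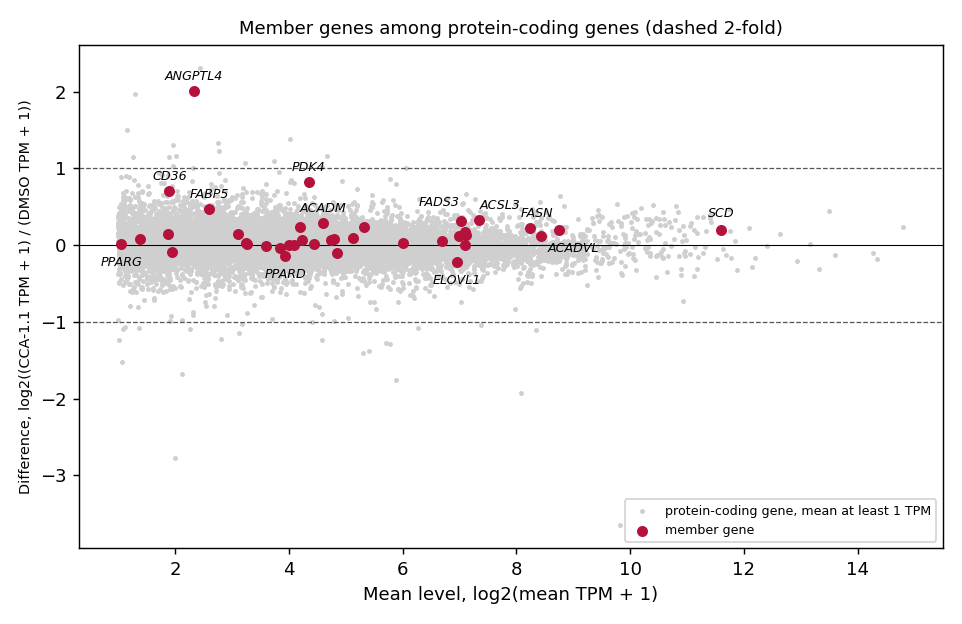
Log2 difference against the mean level, log2(mean TPM + 1), for protein-coding genes averaging 1 TPM or more (grey) and members (red). ANGPTL4, PDK4 and CD36 stand at the upper edge of genes of their own level, while SCD, the most abundant member, lies at 0.20 within the grey points.

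The receptors that act on those genes differed less. PPARA, the isoform best known for oxidation genes, was 25.2 TPM with DMSO and 26.3 TPM with CCA-1.1, a log2 difference of 0.06. PPARD, a broadly expressed isoform, was 15.1 and 13.6 TPM, a log2 difference of -0.14. PPARG, the adipogenic isoform, was 1.06 and 1.08 TPM, just above the filter on low values. RXRA, the shared partner, was 13.5 and 13.2 TPM, a log2 difference of -0.04. PPARA thus exceeded PPARG by a TPM ratio of 23.7 with DMSO and 24.3 with CCA-1.1. The leading PPARG transcript differed between the libraries, with NM_001374264.2 at 0.74 and 0.04 TPM and NM_138712.5 listed at 0 and then 0.52 TPM. The division of about 1 TPM among 16 listed transcripts has no replicate check.

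Levels of the lipogenesis genes ranged widely. FASN, the synthase that makes palmitate, was 278 TPM with DMSO and 324 TPM with CCA-1.1, a log2 difference of 0.22 that stayed inside 1.2-fold. Its curated transcript NM_004104.5 was 223 and 278 TPM (log2 difference 0.32), while the predicted transcript XM_011523538.3 was 55.2 and 46.0 TPM. ACLY, which supplies cytosolic acetyl-CoA, was 135 and 136 TPM, and ACACA, the cytosolic carboxylase that makes malonyl-CoA, was 16.0 TPM in both. ACACB, whose product restrains mitochondrial uptake of fatty acids, was 1.54 and 1.69 TPM. ACACA exceeded ACACB by a TPM ratio of 10.4 with DMSO and 9.44 with CCA-1.1. Of the ACACA transcripts, predicted XM_005257267.6 was 1.40 and 0.17 TPM and predicted XM_047435888.1 was listed at 0 and then 1.04 TPM.

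Desaturation held the most abundant member. SCD, the desaturase that places the first double bond in stearate and palmitate, was 2900 TPM with DMSO and 3328 TPM with CCA-1.1, a log2 difference of 0.20, and ranked 24 among all genes by mean level. SCD made up 54.5% of the members' summed TPM with DMSO and 55.4% with CCA-1.1, those sums being 5319 and 6011 TPM. Without SCD the members summed to 2419 and 2683 TPM. SCD exceeded FASN by a TPM ratio of 10.4 with DMSO and 10.3 with CCA-1.1.

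FADS3, a desaturase acting on sphingoid bases, was 115 TPM with DMSO and 144 TPM with CCA-1.1, a log2 difference of 0.31, and its main transcript NM_021727.5 was 109 and 139 TPM. FADS1, the delta-5 desaturase of polyunsaturated fatty acids, was 328 and 357 TPM, a log2 difference of 0.12. FADS2, the delta-6 desaturase that acts before it, was 8.38 and 8.59 TPM. FADS1 exceeded FADS2 by a TPM ratio of 39.1 with DMSO and 41.6 with CCA-1.1. Their gene bodies overlap by 801 bases, and whether the sequencing kept strand is not given in the sources used here. Among elongases, ELOVL1, which acts on very long chains, was 132 and 113 TPM, and its log2 difference of -0.22 was the lowest of the 38 members. ELOVL5, which acts on polyunsaturated chains, was 131 and 144 TPM (log2 difference 0.14), and ELOVL6, which extends palmitate, was 8.58 and 8.71 TPM. ELOVL1 and ELOVL5 were level with DMSO, at a TPM ratio of 1.01, and stood at 0.785 with CCA-1.1.

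**Figure D3:**
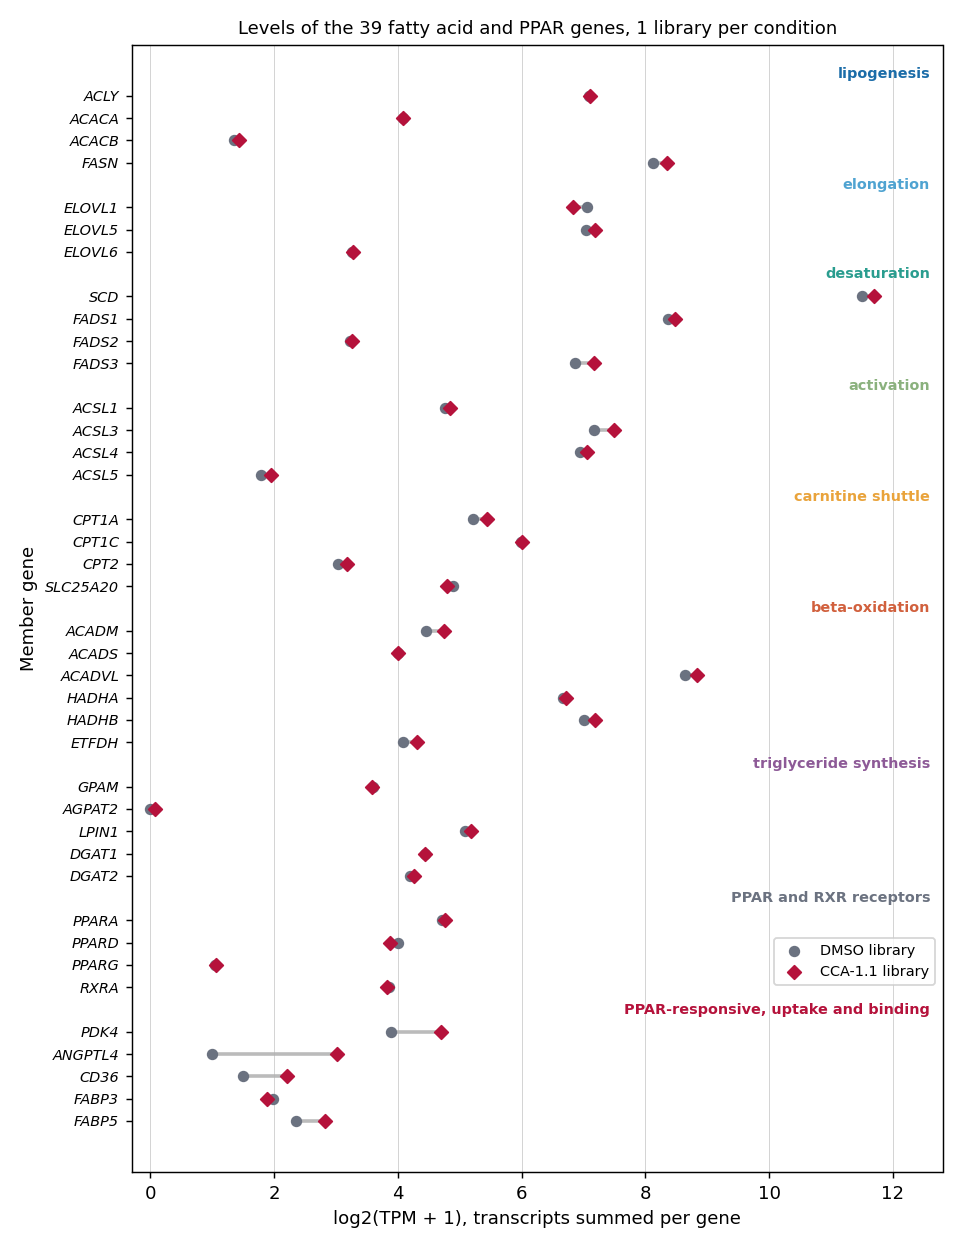
Level of each member as log2(TPM + 1), by role, with circles for DMSO and diamonds for CCA-1.1, 1 value per library and no error. SCD lies highest, AGPAT2 lies at or near 0, and the points stand farthest apart for ANGPTL4, at 1 and 7.07 TPM.

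The activation genes are acyl-CoA synthetases that join fatty acids to coenzyme A. All 4 members lay above 0, beside 53.8% of protein-coding genes above 0. Of these 4, 1 was higher past 1.2-fold, beside 15.5% of all genes and 10.7% of protein-coding genes, so this count says little. The 5 other activation genes measured had 1 above 0 and 4 below, with a median of -0.09. ACSL3, which works at the endoplasmic reticulum and on nascent lipid droplets, was 143 TPM with DMSO and 179 TPM with CCA-1.1, a log2 difference of 0.33. Both its main transcripts were higher, NM_203372.3 at 106 and 128 TPM and NM_004457.5 at 33.7 and 46.0 TPM. ACSL4, which prefers arachidonate, was 121 and 132 TPM, ACSL1 was 26.1 and 27.6 TPM, and ACSL5 was 2.46 and 2.84 TPM, with log2 differences of 0.12, 0.08 and 0.15. ACSL3 exceeded ACSL5 by a TPM ratio of 57.9 with DMSO and 63.2 with CCA-1.1. The ACSL5 gene body overlaps that of ZDHHC6 (43.5 and 60.0 TPM) by 3965 bases, and the part of this overlap in its value was not tested.

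In the carnitine shuttle, CPT1A, the regulated entry step on the outer mitochondrial membrane, was 35.99 TPM with DMSO and 42.4 TPM with CCA-1.1, a log2 difference of 0.23. CPT1C, a brain isoform of the endoplasmic reticulum, was 62.3 and 63.6 TPM and exceeded CPT1A by a TPM ratio of 1.73 with DMSO and 1.501 with CCA-1.1. CPT2, the inner membrane enzyme, was 7.18 and 8 TPM, and SLC25A20, the carnitine-acylcarnitine carrier, was 28.8 and 26.8 TPM, with log2 differences of 0.14 and -0.10. Within CPT1C, the division among 24 listed transcripts moved while the sum did not, with NM_001199753.2 at 12.7 and 7.27 TPM and XM_047438162.1 at 12.9 and 18.2 TPM.

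The 6 beta-oxidation genes had differences above 0, ACADS barely so, with a median of 0.18, beside 53.8% of protein-coding genes above 0. Among the 16 other beta-oxidation genes measured, 8 lay above 0 and 8 below, with a median of -0.01. The 6 members summed to 679 TPM with DMSO and 764 TPM with CCA-1.1. ACADM, the medium-chain acyl-CoA dehydrogenase, was 20.9 and 25.8 TPM, a log2 difference of 0.29. Most of its difference in TPM lay in NM_001286042.2, at 2.63 and 5.62 TPM, against 17.6 and 19.9 TPM for the leading transcript NM_000016.6. ETFDH, which passes electrons from acyl-CoA dehydrogenases to ubiquinone, was 15.9 and 18.9 TPM (log2 difference 0.23). ACADVL, the very-long-chain dehydrogenase, was the highest of the group at 398 and 456 TPM (log2 difference 0.19). HADHB was 128 and 144 TPM and HADHA 101 and 104 TPM, so the log2 differences of these genes with adjoining starts were 0.17 and 0.05, and their TPM ratio was 1.27 and 1.38. ACADS, the short-chain dehydrogenase, was 14.9 and 15.0 TPM, and the sign of its difference turned under median ratio scaling.

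The triglyceride synthesis members stayed within 0.09 of 0 on the log2 difference scale. Among 5 other genes of this role measured, 1 lay above 0 and 4 below, with a median of -0.11 and a lowest value of -0.24. LPIN1, a phosphatidate phosphatase that also acts with PPARA in the nucleus, was 33.01 TPM with DMSO and 35.1 TPM with CCA-1.1, a log2 difference of 0.09. GPAM, the mitochondrial acyltransferase that starts the pathway, was 11.1 and 10.96 TPM. DGAT1 and DGAT2, which perform its last step, were 20.6 and 20.8 TPM and 17.3 and 18.2 TPM, in that order. AGPAT2, the acyltransferase between them, is the member under the filter named above.

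At the transcript level, 313 transcripts of the members were listed, of which 107 were at 0 in both libraries and 96 had a mean of at least 1 TPM. Among those 96, 1 was past 2-fold, NM_139314.3 of ANGPTL4 with a log2 difference of 2.11, which had passed the filter through the CCA-1.1 library alone. The background is 3.66% of all transcripts higher and 3.38% lower by as much. With no filter, 2 were higher and 1 was lower, the others being the ACACA transcripts above, beside 1.17% and 1.07% of all transcripts. The most abundant transcript was the same in both libraries for 36 of the 38 members, ANGPTL4 and PPARG being the exceptions.

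**Figure D4:**
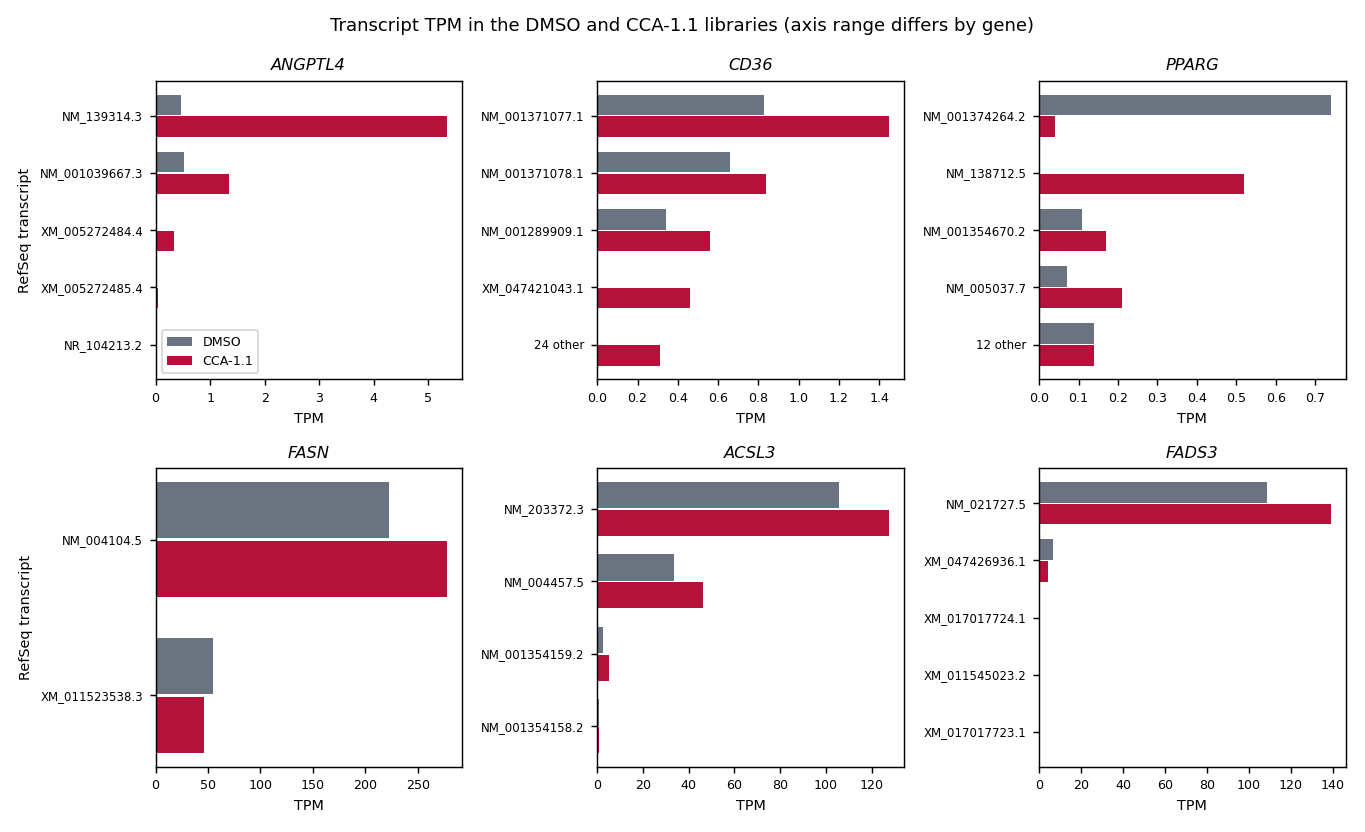
TPM of the listed transcripts of 6 members, with grey bars for DMSO and red bars for CCA-1.1 and an axis range that differs by gene. NM_139314.3 of ANGPTL4 goes from 0.47 to 5.35 TPM, while FASN shows a higher curated and a lower predicted transcript.

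Other genes of the same pathways were listed by role, 90 in all, also with earlier results of these data known. Of these, 66 averaged 1 TPM or more. Past 1.2-fold, 9 were higher (13.6%) and 5 were lower (7.58%). The backgrounds are 15.5% and 9.3% of all genes, and 10.7% and 7.04% of protein-coding genes, so both shares lie near them. Past 2-fold stood 0 in either direction, beside 1.89% higher and 1.67% lower of all genes, and 0.149% and 0.191% of protein-coding genes. The median difference of the 66 genes was -0.02, with 30 above 0 and 36 below. The positive median of the 38 members was not seen over this wider list. The largest positive differences were those of HSD17B4, a peroxisomal beta-oxidation enzyme (26.3 and 37.8 TPM, log2 difference 0.51), and CPT1B, the muscle isoform of CPT1A (3.55 and 5.19 TPM, 0.44), which overlaps the readthrough gene CHKB-CPT1B. OLAH, ACSM3 and VLDLR followed at 0.34, 0.33 and 0.32 on the log2 difference scale. The most negative were ACOT2, a mitochondrial acyl-CoA thioesterase and a PPARA target (17.2 and 12.1 TPM, -0.48), and CYB5R3, which passes electrons to desaturases (192 and 145 TPM, -0.41). CYB5A, the electron carrier between CYB5R3 and SCD, was 18.4 and 14.1 TPM (-0.36), so both of these electron transfer genes were lower past 1.2-fold. The 4 desaturase members lay above 0, FADS2 by only 0.03, beside 53.8% of protein-coding genes above 0. SCD5, of the same role but under the filter, was 0.36 and 0.96 TPM. So few genes say little about this role. ACOT1, nearly identical to ACOT2 and hard to separate from it by short reads, stood at -0.35, and ELOVL3 at -0.33.

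Of the 18 PPAR-responsive, uptake and binding genes on that wider list, 10 had a mean of at least 1 TPM, with 2 higher and 2 lower past 1.2-fold and a median of 0.06. The backgrounds over all genes are 15.5% higher and 9.3% lower, so counts this small say little about these 10 genes. LPL and FABP1 were listed at 0 in both libraries, and FABP4 was listed at 0 with DMSO and at 0.15 TPM with CCA-1.1. Of 8 RXR and coregulator genes measured, 7 lay below 0 and 1 above, with a median of -0.08, beside 53.8% of protein-coding genes above 0. Past 1.2-fold were 0 of the 8, which also says little beside the backgrounds of 15.5% and 9.3%.

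The study's list of predicted protein targets of CCA-1.1 names 8 of the members, ACACA, ACACB, SCD, DGAT1, PPARA, PPARD, PPARG and RXRA. The differences of those 8 ran from -0.14 for PPARD to 0.20 for SCD, and 0 were past 1.2-fold in these libraries. Over all genes 15.5% were higher and 9.3% lower past that fold, so 0 of 8 says little about these members. Such a list concerns binding to proteins, which mRNA levels do not measure.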

How the data were processed

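mRNA of U87 cells treated for 72 h with DMSO or CCA-1.1 was sequenced, 1 library each. The authors enriched mRNA, checked reads with FastQC 0.11.9 and MultiQC 1.1 (submitters' processing notes) and quantified transcripts with Kallisto against GRCh38.p14. The deposited values are TPM with 2 decimals, which show no read depth, so no count test, interval or p-value was computed.

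Of 177816 transcripts, 169966 matched 41582 RefSeq symbols (GRCh38.p14), and TPM was summed per symbol. Differences were log2((CCA-1.1 TPM + 1) / (DMSO TPM + 1)), for genes averaging 1 TPM or more, called at 1.2-fold and 2-fold. The members and lists were chosen with earlier results of these data known. All members were named, with the 5 highest and 5 lowest other pathway genes, transcripts past 2-fold and leading transcripts. Protein-coding backgrounds, level bands, the TATAAA and CCAAT searches and the SCD and HADHB sequences were added after seeing values. The calculation was tested on simulated data with a small, fixed noise, which checks the arithmetic and not how far real libraries vary. Python 3.11.15, numpy 2.4.6, pandas 2.3.3 and matplotlib 3.10.9 were used. Alternatives were pseudocounts of 0.1 and 0.01 TPM, median ratio scaling, a mean of 10 TPM or no filter, and curated transcripts.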

Additional observations from a re-analysis of the deposited data

How the results depend on the processing

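No paired analysis was possible because each condition had 1 library. Under pseudocounts of 0.1 and 0.01 TPM, 11 and 12 of 96 member transcripts were past 2-fold (7 higher and 4 lower, then 8 and 4), beside 7.07% higher and 5.9% lower, then 7.58% and 6.26%, of all transcripts. ANGPTL4 then stood at 2.70 and 2.81 and CD36 at 0.95 and 0.98; these scales give low values more weight. With a mean of at least 10 TPM, fewer genes were left. Past 2-fold were then 0 of 37 member transcripts and 0 of 28 member genes. Over all transcripts at that mean 0.594% were higher and 0.686% lower, so 0 of 37 says little. Past 1.2-fold were 4 of 28 members, all higher, beside 9.45% of all genes higher and 7.01% lower. Of 48 other pathway genes, 6 were past it, 3 each way. With no filter, 3 of 313 member transcripts were past 2-fold, beside 1.17% of all transcripts higher and 1.07% lower. With curated transcripts alone, FASN stood at 0.32 and PPARD at -0.28, both past 1.2-fold, ACACA at -0.26 and CD36 at 0.55, and the sign changed for 3 of 37 members, CPT1C at -0.10, PPARA at -0.14 and DGAT1. Median ratio scaling, a factor of 1.0028, changed the sign of 1 member, ACADS. No member changed sign under either pseudocount, and 7 of 38 members stayed higher past 1.2-fold, with 0 lower. Over all genes 19.1% and 19.5% were then higher past it, and 11.1% and 11.4% lower, at 0.1 and 0.01 TPM. The members' share of 18.4% higher was thus no larger than that of all genes under these settings. Without replicates, no setting shows how far such differences vary between cultures.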
